A study of Mus musculus with 2 samples.

Results

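The genes described here were 40 members of 3 metabolic pathways, taken by gene symbol from the 32285 genes listed in the files. Glycolysis was represented by 15 genes, the oxidation of fatty acids in mitochondria by 14 genes and the synthesis of sterols by 11 genes. Their transcripts were followed in single splenic natural killer (NK) cells, in the other lymphocytes of the same sort, and in 2 libraries, 1 of a control and 1 of a dietary restriction (DR) group of mice. Members were taken by pathway, and 27 of the 40 passed the limit on low values in NK-like cells.

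Glycolysis splits glucose into pyruvate in the cytosol, and lactate dehydrogenase turns pyruvate into lactate, which regenerates the cofactor that keeps the pathway running. Fatty acids enter mitochondria through the carnitine palmitoyltransferases and are shortened step by step by the enzymes of beta-oxidation, whose electrons pass through the electron transfer flavoprotein. Sterols are built from acetyl-CoA through mevalonate, isoprenoids, squalene and lanosterol. The genes of that pathway are switched on by SREBP2, the product of Srebf2, which INSIG1 holds back when sterols are plentiful. NK cells that divide or are activated are known to raise glycolysis, and SREBP factors are known to take part in that response.

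Per the labels, NK cells were isolated by flow cytometry from the spleens of normal mice, labelled control, and of mice on dietary restriction. The labels used here gave no strain, genotype, sex, age, diet, number of mice or sorting gate. Each group was 1 library of 3' transcript ends, so no difference between the libraries has a replicate check, and no test was possible. There were 44526828 unique molecular identifiers (UMIs) on 5702 barcodes in the control library and 42134212 UMIs on 6287 barcodes in the DR library, with medians of 7152 and 5782 UMIs per barcode. The libraries shared 13 barcodes. After filtering and removal of high doublet scores, 5225 control and 5785 DR cells were kept.

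Cells were clustered without the pathway genes and named from markers. NK-like cells numbered 4502 in control and 4234 in DR, and their 10 NK markers all reached 20 CPM (the UMIs of a gene per 1000000 UMIs) in both libraries. The sort was not pure: ILC1-like cells (innate lymphoid cells related to NK cells) numbered 298 and 425, B-like cells 123 and 456, and T-like cells 3 and 290. NK-like cells that were not cycling were split by whether they carried a UMI of Cd27, a receptor of early stages, or Itgam, which encodes CD11b and marks later stages. Cells with Cd27 alone numbered 489 in control and 712 in DR, cells with both 1037 and 955, cells with Itgam alone 2208 and 1548, and cells with neither 688 and 981. A stage call depends on depth, and the median was lower in the DR library in each of the 4 stages. Cycling NK-like cells, with UMIs of at least 4 of 12 cell cycle genes, numbered 80 and 38.

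Levels are CPM of all UMIs of a class, and 95% intervals are exact Poisson intervals that cover counting error only. Because only the 3' end of a transcript was counted, levels of different genes were not ranked against each other. A gene was called higher by size at 25% or more above the reference and lower at 20% or more below it, if the 95% exact conditional binomial interval of the ratio left out equality. Contrasts between cell classes needed the same call in both libraries. A gene counted as measured when its mean over both sides reached 20 CPM.

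Promoter windows were taken from the RefSeq table (GRCm38.p6), from 250 bases before to 50 bases after each start, for 35 of the 40 members. The core of the hypoxia response element, ACGTG, was searched on both strands together with the E-box CACGTG, which contains that core, the sterol response element TCACNCCAC and the estrogen-related receptor element TCAAGGTCA. ACGTG stood in the windows of 9 of 15 glycolysis genes (Hk1, Hk2, Pfkm, Aldoa, Gapdh, Pgk1, Pgam1, Pkm and Ldha), of 1 of 12 fatty acid oxidation genes (Acadvl) and of 3 of 8 sterol genes (Insig1, Dhcr7 and Sc5d), against 21.8% of 27025 genes in the table. CACGTG stood in Pfkm, Ldha, Insig1, Dhcr7 and Sc5d, against 8.09% of all genes. TCACNCCAC stood in Hmgcs1 and in a window of Pkm, against 1.44% of all genes, and TCAAGGTCA in 0 members against 0.466%. A match is a match of letters in this window and not a shown binding site. Of the glycolysis genes first given below as higher in cycling NK cells, Gapdh, Ldha, Pgk1 and Pkm held ACGTG, and Tpi1 and Gpi1 did not. Aldoa, called lower there, held it. The stretches below, all upstream of the start on the plus strand, are shown because Ldha and Pgk1 were among the glycolysis genes that differed most between cycling and other NK cells, and Hmgcs1 was the sterol gene with the sterol response element; the matched letters are in capitals.
Ldha, chr7:46845619-46845803: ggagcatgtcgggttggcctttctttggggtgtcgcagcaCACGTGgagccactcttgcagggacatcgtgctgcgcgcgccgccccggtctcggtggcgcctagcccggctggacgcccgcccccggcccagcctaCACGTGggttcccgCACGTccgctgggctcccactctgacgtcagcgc
Pgk1, chrX:106186910-106187013: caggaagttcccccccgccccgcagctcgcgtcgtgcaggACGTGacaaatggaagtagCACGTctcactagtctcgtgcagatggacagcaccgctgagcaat
Hmgcs1, chr13:119690174-119690262: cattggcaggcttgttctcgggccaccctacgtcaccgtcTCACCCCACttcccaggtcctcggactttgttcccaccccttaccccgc
The Ldha stretch held 3 matches, from 145 to 34 bases before the start, and the Pgk1 stretch held 2.

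The first comparison set the DR library against the control library over all NK-like cells. The 2 members called lower belong to glycolysis: Hk1 (hexokinase 1, which phosphorylates glucose) and Pfkp (the platelet-type phosphofructokinase, which commits sugar to glycolysis). Hadh, the mitochondrial hydroxyacyl-CoA dehydrogenase of short and medium chains, was called higher. The other 24 measured members were called neither way. Of 5842 measured genes, 3.22% were called higher and 8.03% lower, so 1 higher and 2 lower among 27 members are shares close to those of all genes.

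Hk1 stood at 58.1 CPM in control (55.6 to 60.7) and 44.4 CPM in DR (41.9 to 47.1), a log2 ratio of -0.39 (-0.49 to -0.28). Pfkp stood at 176 CPM (172 to 180) and 134 CPM (130 to 139), also a log2 ratio of -0.39 (-0.45 to -0.33). The intervals of the 2 libraries did not overlap for either gene. Ldha, which encodes the lactate dehydrogenase A subunit, stood at 270 CPM (265 to 276) and 218 CPM (212 to 224). Its log2 ratio of -0.31 (-0.36 to -0.26) lay just inside the limit, and it was called lower, at 271 and 212 CPM, when only cells with Ncr1 or Klrb1c UMIs and no UMI of Cd3e, Cd79a, Ms4a1 or Lyz2 were counted. In those cells 1 member was called higher and 3 lower, against 3.27% and 7.98% of all genes. Downstream of phosphofructokinase most enzymes were near equal: Gapdh stood at 474 and 504 CPM, Pkm (pyruvate kinase) at 217 and 215 CPM, and Pgk1 at 101 and 97.5 CPM. The 12 measured glycolysis genes had a median log2 ratio of -0.03, against -0.06 for all genes, and their summed level was 2185 CPM in control and 2106 CPM in DR.

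**Figure D1:**
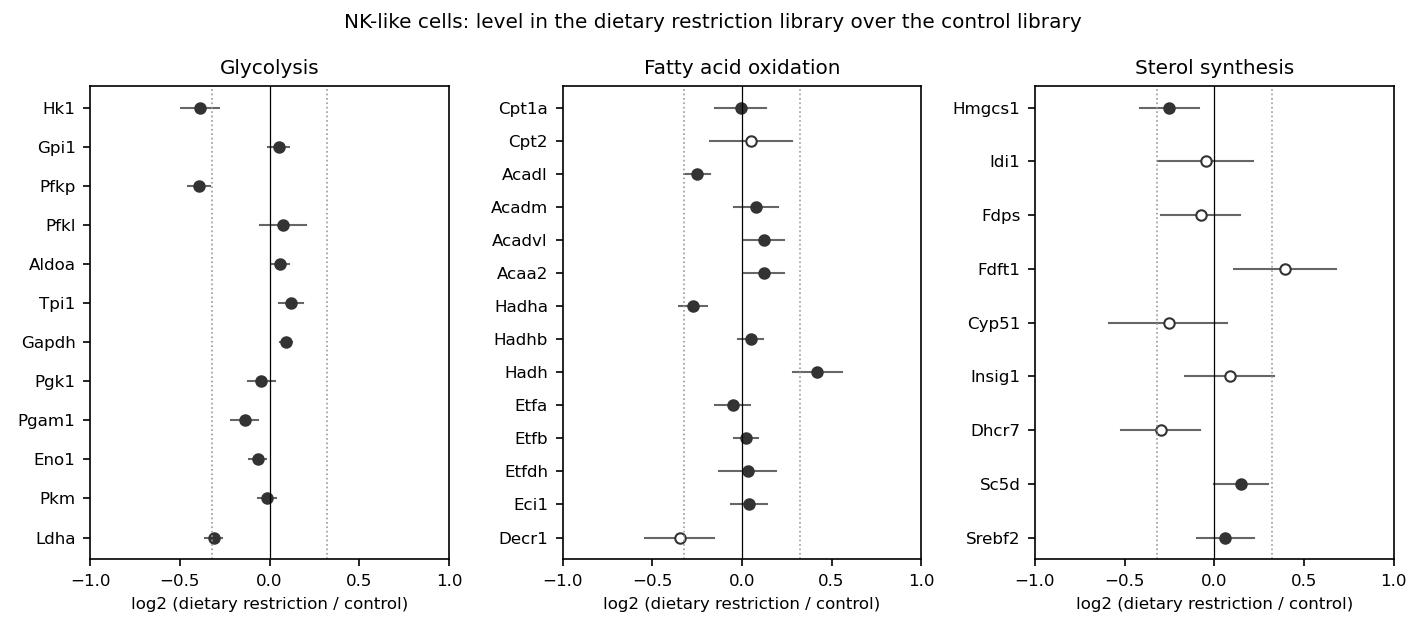
Log2 ratio of the DR library over the control library in NK-like cells for each member whose mean reached 5 CPM; filled points reached 20 CPM, open points did not. Lines are 95% counting intervals and dotted lines the limits of 25% higher and 20% lower. Hk1 and Pfkp lie at -0.39 and Hadh at 0.42, with most members between the limits.

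Fatty acid oxidation showed 1 call among 12 measured genes. Hadh stood at 25.5 CPM in control (23.8 to 27.2) and 34.1 CPM in DR (31.9 to 36.4), a log2 ratio of 0.42 (0.28 to 0.56). Hadha, the alpha subunit of the trifunctional protein that handles long chains, stood at 99.1 and 81.9 CPM, and Acadl, a long-chain acyl-CoA dehydrogenase, at 118 and 99.3 CPM. Their log2 ratios of -0.27 (-0.35 to -0.20) and -0.25 (-0.32 to -0.18) did not reach the limit. Hadhb, the beta subunit of the same protein as Hadha, stood at 112 and 116 CPM. Cpt1a, the entry enzyme, was the same within counting error, at 27.2 and 27.1 CPM. The median log2 ratio of the pathway was 0.04, and its sum was 781 CPM in control and 765 CPM in DR.

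The sterol pathway was low in NK-like cells, where 3 of 11 members were measured and 0 were called. Hmgcs1, which makes HMG-CoA, stood at 23.2 and 19.5 CPM, Sc5d, a late desaturase, at 23.2 and 25.7 CPM, and Srebf2 at 21.6 and 22.6 CPM. The median log2 ratio was 0.06, and the summed level was 127 CPM in control (124 to 131) and 125 CPM in DR (121 to 130). Members below the limit of 20 CPM were Hk2, Pfkm, Ldhb, Cpt2, Decr1, Sqle, Idi1, Fdps, Fdft1, Cyp51, Insig1, Dhcr7 and Lss. With a limit of 5 CPM, at which 6.06% of all genes were called higher and 9.37% lower, Fdft1 (squalene synthase) was called higher at 6.18 and 8.12 CPM, and Decr1 (a reductase for unsaturated chains) lower at 17.5 and 13.8 CPM.

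Of the other genes of these pathways, Hif1a, a transcription factor that drives glycolytic genes, was the 1 of 7 measured on the glycolysis list that was called, with 46.7 CPM in control against 35.7 CPM in DR. None of the measured genes on 3 further lists was called: 11 of 30 fatty acid oxidation genes, 13 of 27 sterol genes and 5 of 10 fatty acid synthesis genes were measured. Of the sterol genes under the limit, Stard4, picked after its values were seen, stood at 9.35 and 25.4 CPM. Higher genes made up 28.6% of all calls with totals as the scale, 53.9% with the median of ratios and 51.8% without ribosomal and mitochondrially encoded genes in the total. The calls of Hk1, Pfkp and Hadh held under both of these scales. The libraries also differed in the median share of mitochondrial UMIs in NK-like cells, 1.58% in control and 2.39% in DR, and in the summed level of 10 B cell markers there, 187 and 1082 CPM; the part of either in these ratios was not tested beyond the alternatives run.

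The stages of NK cells took different shares of the libraries, so the same contrast was read within each stage. Among cells with Cd27 alone, 26 members were measured. Of these, 1 was called higher (Hadh) and 4 lower (Ldha, Hk1, Pgam1 and Hmgcs1), against 4.98% and 9.15% of all genes. Hmgcs1 reached the limit there only through the control cells, at 24.7 CPM against 16.9 CPM in DR. Among cells with both, 0 were called higher and 4 lower (Ldha, Hk1, Pfkp and Hadha), against 4.58% and 9.26%. Among cells with Itgam alone, Hadh was called higher and Hk1 and Pfkp lower, against 4.21% and 8.59%. Among cells with neither, 0 were higher and Ldha was lower, against 4.89% and 9.77%.

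Ldha was below control in each of the 4 stages. It stood at 297 and 227 CPM in cells with Cd27 alone, 267 and 209 CPM in cells with both, 245 and 200 CPM in cells with Itgam alone, and 290 and 211 CPM in cells with neither. The log2 ratios were -0.39, -0.35, -0.29 and -0.46, and the interval left out equality each time. Hk1 had log2 ratios of -0.34, -0.37, -0.44 and -0.28 in the same order, with an interval that reached 0.00 in cells with neither. Pfkp had -0.28, -0.52, -0.36 and -0.25. Hadh was higher by 0.60 in cells with Cd27 alone and by 0.50 in cells with Itgam alone, with 0.32 and 0.15 in the other stages. Whether stages differed in these ratios was not tested. In ILC1-like cells Ldha stood at 314 and 247 CPM, Pfkp at 96.2 and 61.2 CPM and Hadh at 24.5 and 36.9 CPM, whereas Hk1 stood at 55.5 and 61.2 CPM with an interval that held equality. In B-like cells, of which control had 123, Ldha, Hk1, Pfkp and Hadh had intervals that held equality. Hadh stood there at 23.5 CPM (16.2 to 33.1) in control, on 33 UMIs, and 26.3 CPM (21.6 to 31.7) in DR. Such intervals do not show equal levels.

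Within a library, early and late NK stages differed little in most members. Cells with Cd27 alone had a summed glycolysis level of 2327 CPM in control and 2146 CPM in DR, and cells with Itgam alone 2042 and 1986 CPM. Of 27 measured members, 2 were called higher in cells with Cd27 alone and 0 lower, against 4.03% and 7.92% of all genes. Gpi1 (glucose-6-phosphate isomerase) stood at 195 against 136 CPM in control and 184 against 144 CPM in DR, log2 ratios of 0.52 and 0.36. Pgam1 (phosphoglycerate mutase) stood at 141 against 91.4 CPM and at 109 against 87.3 CPM, log2 ratios of 0.62 and 0.33. Gapdh was called higher in the control library only, at 519 against 400.3 CPM, and stood at 506 against 452 CPM in DR. Neither of the calls of Gpi1 and Pgam1 held when stages were assigned after thinning each cell to 2000 UMIs. Of fatty acid oxidation, 3 of 12 measured genes (Cpt1a, Acadm and Etfdh) were called lower in the control library and 0 in DR. Read in single libraries, 1108 of all 5809 measured genes were called lower in control and 757 in DR. The share of 3 in 12 is thus close to that of all genes. Cpt1a stood at 20.4 against 29.4 CPM in control and at 23.7 against 29.1 CPM in DR. Acadm stood at 31.5 against 39.7 CPM and at 35.9 against 38.6 CPM, and Etfdh at 18.3 against 23.6 CPM and at 19.4 against 22.9 CPM. Etfdh reached the limit only through the cells with Itgam alone. The summed fatty acid oxidation level lay between 735 and 784 CPM over the 4 stages and both libraries, and that of sterol synthesis between 117 and 135 CPM. On the further glycolysis list, 1 of 7 measured genes was called higher in cells with Cd27 alone and 1 lower. The higher gene was Myc, a growth regulator that activates glycolytic genes. Myc stood at 43.4 against 17.4 CPM in control and 39.4 against 17.8 CPM in DR. It passed the limit only through the cells with Cd27 alone. On the further sterol list, 0 of 12 measured genes were called higher and 3 lower. On the further fatty acid oxidation list, 0 of 11 were called higher and 1 lower. Of 5 measured fatty acid synthesis genes, 0 were called. Higher genes were 33.7% of all calls, 60.9% with the median of ratios and 63.4% without ribosomal and mitochondrially encoded genes.

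**Figure D2:**
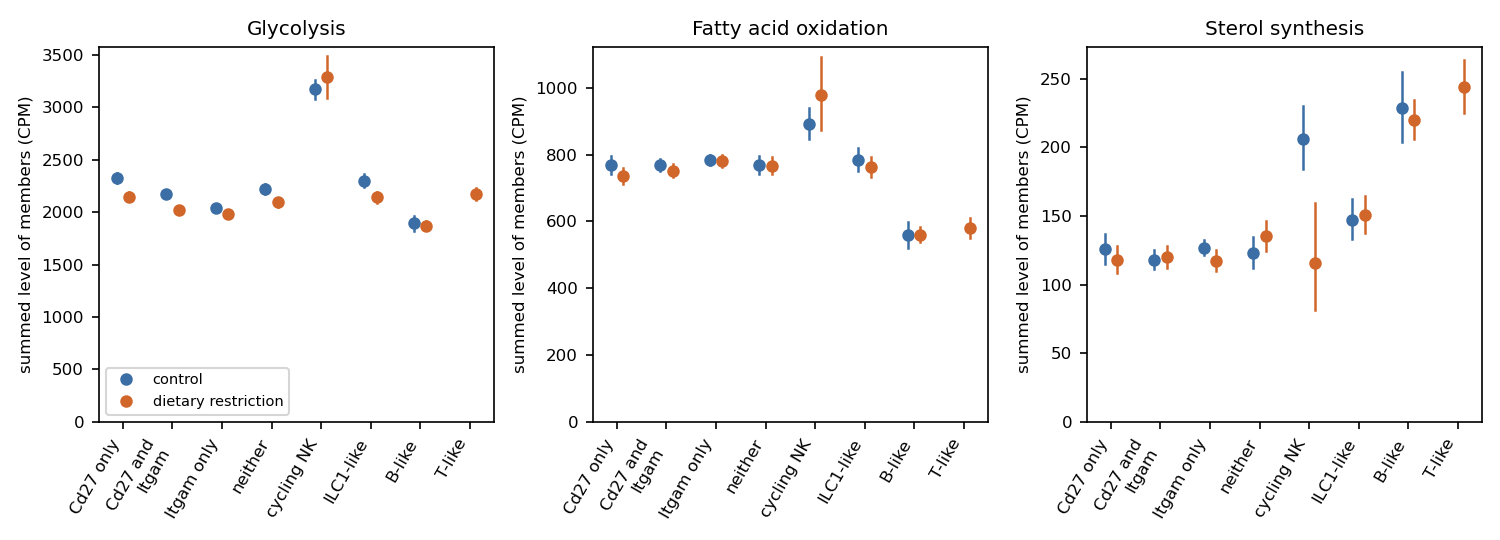
Summed level of the members of each pathway in CPM, by cell class and library; lines are 95% Poisson intervals, and the T-like class is shown for the DR library only. Cycling NK cells are those that also carried Ncr1 or Klrb1c and no UMI of Cd3e, Cd79a, Ms4a1 or Lyz2. Glycolysis stands highest in cycling NK cells, at 3170 and 3287 CPM, fatty acid oxidation lowest in B-like and T-like cells, and sterol synthesis is higher in B-like and T-like cells than in the 4 stages.

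Among NK-like cells, cycling gave more calls than the contrast of stages. The cycling cells of the DR library were mixed: 14 of 38 had no UMI of Ncr1 or Klrb1c, 16 had UMIs of B cell genes and 4 had Cd3e. The 10 B cell markers summed to 24567 CPM in them, against 505 CPM in control cycling cells. Values are therefore given first for cycling cells with Ncr1 or Klrb1c and no UMI of Cd3e, Cd79a, Ms4a1 or Lyz2, 73 in control and 18 in DR, with median depths of 21424 and 18205 UMIs against 6990 and 5333 in other such cells, a restriction added after the data were seen. In these the B cell markers summed to 164 and 196 CPM, with Cd79a and Ms4a1 at 0, and the T cell markers to 756 and 605 CPM, with Cd3e at 0.

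Glycolysis was higher in cycling NK cells of both libraries, from 2136 to 3170 CPM in control and from 2048 to 3287 CPM in DR. Of 12 measured glycolysis genes, 6 were called higher in both (Gapdh, Ldha, Pgk1, Tpi1, Pkm and Gpi1) and 1 lower (Aldoa). All members together gave 9 higher and 2 lower of 27, against 12.8% and 15.4% of all genes. The median log2 ratio of glycolysis was 0.37, against -0.18 for all genes.

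Gapdh, the dehydrogenase that makes the pathway's first reduced cofactor, stood at 441 CPM in other and 1110 CPM in cycling cells of control, and at 468 and 1254 CPM in DR. These are log2 ratios of 1.33 (1.26 to 1.40) and 1.42 (1.27 to 1.56). Gapdh thus made up the larger part of the rise in the summed glycolysis level in both libraries. Ldha stood at 264 and 417 CPM in control and at 210 and 387 CPM in DR, log2 ratios of 0.66 (0.55 to 0.78) and 0.88 (0.61 to 1.14). Pgk1, the first ATP-yielding kinase, stood at 96.1 and 179 CPM in control and at 92.3 and 165 CPM in DR, log2 ratios of 0.89 and 0.84. Tpi1 (triosephosphate isomerase) had log2 ratios of 0.74 and 0.84, Pkm 0.60 and 0.70, and Gpi1 0.34 and 0.56. Hk1 and Pfkp were not called in both libraries: Hk1 stood at 59.2 and 50.9 CPM in control and at 44.8 and 24.9 CPM in DR, and Pfkp at 178 and 158 CPM and at 136 and 122 CPM. Aldoa (aldolase A) was lower, at 219 and 121 CPM in control and 223 and 162 CPM in DR. Some reads of Aldoa and Eno1 could be split with a second Aldoa identifier, which held 2 UMIs, and with the near-identical Eno1b, which held 728 UMIs against 20142 of Eno1.

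**Figure D3:**
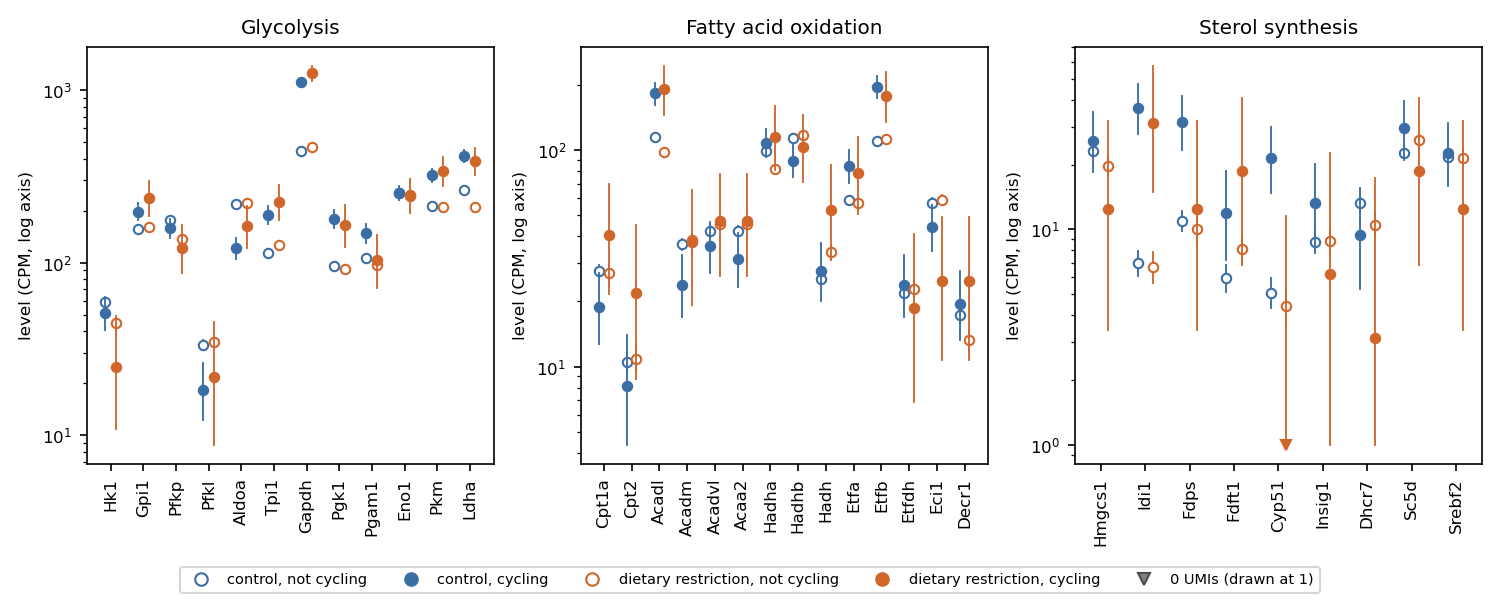
Level in CPM on a log axis for members whose mean reached 5 CPM, in cycling (filled) and other (open) NK-like cells that carried Ncr1 or Klrb1c and no UMI of Cd3e, Cd79a, Ms4a1 or Lyz2. Lines are 95% Poisson intervals, cut off at 1, and a triangle marks 0 UMIs. Gapdh, Ldha, Pgk1, Tpi1 and Pkm are higher in cycling cells of both libraries, and so is Idi1.

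In fatty acid oxidation 2 genes were called higher in cycling cells and 1 lower of 12 measured. Acadl stood at 115 and 182 CPM in control and at 97.8 and 190 CPM in DR, log2 ratios of 0.67 and 0.96. Etfb, the beta subunit of the electron transfer flavoprotein, stood at 110 and 196 CPM and at 113 and 178 CPM, log2 ratios of 0.83 and 0.66. Its partner Etfa stood at 58.8 and 84.2 CPM in control and at 57.1 and 78.0 CPM in DR and was called in control but not in both. Eci1, an isomerase for unsaturated chains, was lower, at 57.0 and 44.0 CPM and at 58.6 and 24.9 CPM. The median log2 ratio of the pathway was -0.03.

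In sterol synthesis 1 of 3 measured genes was called, Idi1, the isomerase that makes the building block of isoprenoids. Idi1 reached the mean of 20 CPM only through the cycling cells, so that its place in the count above was set in part by the filter. It stood at 6.95 CPM in other cells against 36.5 CPM (27.7 to 47.1) in control cycling cells, and at 6.67 against 31.2 CPM (14.96 to 57.4) in DR, on 58 and 10 UMIs in cycling cells. The log2 ratios were 2.39 (1.95 to 2.81) and 2.22 (1.14 to 3.14). No other sterol gene was called in both libraries. Fdft1 stood at 5.92 and 11.9 CPM in control and at 8.09 and 18.7 CPM in DR, and was called in control. Dhcr7 stood at 13.3 and 9.43 CPM in control and at 10.5 and 3.12 CPM in DR, called in neither. Fdps (farnesyl diphosphate synthase) stood at 10.9 and 31.4 CPM in control but at 9.99 and 12.5 CPM in DR, the latter on 4 UMIs, and was called in control only. Cyp51 (lanosterol demethylase) stood at 5.09 and 21.4 CPM in control, where it was called, and no UMI was seen in the 18 DR cells, which allows up to 9.36 CPM at a limit of 3 counts. The summed sterol level was 206 CPM (184 to 230) in control cycling cells and 115 CPM (81.2 to 159) in DR cycling cells.

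Over all 80 and 38 cycling cells of the NK-like clusters, 12 of 29 measured members were called higher and 1 lower, against 16.8% and 24.2% of all genes. Fdps, Etfa and Pgam1 were then among the higher members, and the lower member was Eci1. Idi1 and Fdps reached the limit there only through the cycling cells. Fdps stood at 33.5 CPM and Cyp51 at 18.8 CPM in DR cycling cells, and the summed sterol level there was 256 CPM, against 115 CPM after the restriction. Glycolysis had 7 of 12 genes higher and a median log2 ratio of 0.56, against -0.19 for all genes. Higher genes were 40.9% of all calls, 55.9% with the median of ratios and 46.6% without ribosomal and mitochondrially encoded genes; 12 members were called higher under each of these scales.

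When NK-like cells were clustered again without the pathway genes, 2 of 7 sub-clusters stood apart in glycolysis. The first, led by Tnfrsf9 (the receptor 4-1BB), Mettl1 and Spp1 and with the DNA replication and S-phase genes Dut, Hells, Mcm3, Dtl and E2f1 among its 10 leading genes, held 257 control and 146 DR cells and summed to 3001 and 3202 CPM. In both libraries 10 of 12 glycolysis genes exceeded their level over NK-like cells as a whole. The share of all genes that did so was not computed. The second, led by histone genes, Igkc and Mki67, held 85 and 52 cells and summed to 2940 and 3453 CPM. Cd74 and Jchain were also among its 10 leading genes, and Igkc and Cd74 were among the B cell markers used. Its median depth was 14362 UMIs in control and 4363 in DR. The sub-clusters led by Cx3cr1, by Emb, by Ccl4 and by Ly6c2 lay between 1915 and 2246 CPM. A sub-cluster led by Igkc and Gzmc, with a median of 3980 UMIs, lay at 2514 and 2379 CPM. There, too, 10 of 12 glycolysis genes in control and 8 of 12 in DR exceeded their level over NK-like cells as a whole.

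ILC1-like cells were close to NK-like cells in most members. Of 27 measured, 1 was called higher and 1 lower in both libraries, against 11.0% and 8.32% of all genes. Pfkp was lower, at 96.2 against 176 CPM in control and 61.2 against 134 CPM in DR, log2 ratios of -0.87 and -1.13. Srebf2 was higher, at 32.5 against 21.6 CPM and 30.9 against 22.6 CPM, log2 ratios of 0.59 and 0.45. Of the further glycolysis genes, Pdk1, a kinase that inhibits pyruvate dehydrogenase, was higher at 29.1 against 6.29 CPM in control and 34.7 against 11.0 CPM in DR, and passed the limit only through the ILC1-like cells. Higher genes were 56.9% of all calls, 52.6% with the median of ratios and 65.1% without ribosomal and mitochondrially encoded genes.

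Ldhb, the heart-type subunit of lactate dehydrogenase, was below the limit of 20 CPM but differed between classes. It stood at 11.7 CPM in control against 15.5 CPM in DR ILC1-like cells, with a UMI in 17 of 298 and 34 of 425 cells. NK-like cells had 0.0572 and 0.275 CPM, with a UMI in 1 of 4502 and 6 of 4234 cells. T-like cells of the DR library stood at 29.3 CPM, with a UMI in 61 of 290 cells. B-like cells had a UMI in 0 of 123 and 0 of 456, which at a limit of 3 counts allows shares of up to 2.44% and 0.658%. Median depths were 8522 and 7107 UMIs in ILC1-like cells, 7010 and 5336 in NK-like cells and 8727 and 6913 in B-like cells. After thinning to 2000 UMIs the shares were 1.68% and 3.07% in ILC1-like, 0% and 0.0241% in NK-like and 6.55% in T-like cells.

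B-like cells were compared with NK-like cells in each library. Of 24 measured members, 2 were called higher than in NK-like cells of the same library and 10 lower, against 14.4% and 38.5% of all genes, so neither count sets the members apart from all genes. The counts were 4 and 3 with the median of ratios and 5 and 5 without ribosomal and mitochondrially encoded genes. The median log2 ratio of all genes was itself -0.30, so that ratios are read against it. Pfkp stood at 29.3 against 176 CPM in control and 31.1 against 134 CPM in DR, log2 ratios of -2.59 and -2.11. Hk1 stood at 18.5 against 58.1 CPM and at 19.0 against 44.4 CPM, log2 ratios of -1.65 and -1.22, and reached the limit only through the NK-like cells. Hadhb was lower at 56.4 against 112 CPM and 73.0 against 116 CPM. Acadl, Acadvl, Acaa2, Etfb, Eno1, Tpi1 and Ldha completed the lower members; of these 7, all but Tpi1 lost the call without ribosomal and mitochondrially encoded genes in the total, and all 7 with the median of ratios.

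The higher members of B-like cells were Gpi1, at 224 against 158 CPM and 214 against 164 CPM, and Srebf2, at 83.5 CPM (69.0 to 100.04) against 21.6 CPM in control and 80.8 CPM (72.3 to 89.9) against 22.6 CPM in DR. Srebf2 had log2 ratios of 1.95 and 1.84. With the limit of 5 CPM, at which 14.2% of all genes were called higher and 31.4% lower, 5 members were higher: Gpi1, Srebf2, Fdps, Cyp51 and Idi1. Cyp51 stood at 25.7 against 5.89 CPM and 14.7 against 4.94 CPM. The summed sterol level was 228 CPM in control B-like cells and 220 CPM in DR, of which Srebf2 made up 83.5 and 80.8 CPM. Not all members were higher: Hmgcs1 stood at 16.4 against 23.2 CPM in control and 16.2 against 19.5 CPM in DR. Dhcr7 and Sc5d were not above NK-like cells in either library. On the further sterol list, 2 of 12 measured genes were called higher in both libraries and 5 lower. Below the limit of 5 CPM, Sqle (squalene epoxidase, which makes the first oxygenated sterol precursor) stood at 7.85 and 10.1 CPM in B-like cells and at 0.486 and 0.471 CPM in NK-like cells. Of 4 measured fatty acid synthesis genes, 1 was called higher in both libraries and 2 lower. The higher gene, Scd1 (a desaturase), stood at 250.4 and 244 CPM in B-like cells against 0.772 and 2.04 CPM in NK-like cells. Scd1 passed the limit of 20 CPM only through the B-like cells. Higher genes were 27.2% of all calls, 51.7% with the median of ratios and 48.5% without ribosomal and mitochondrially encoded genes.

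**Figure D4:**
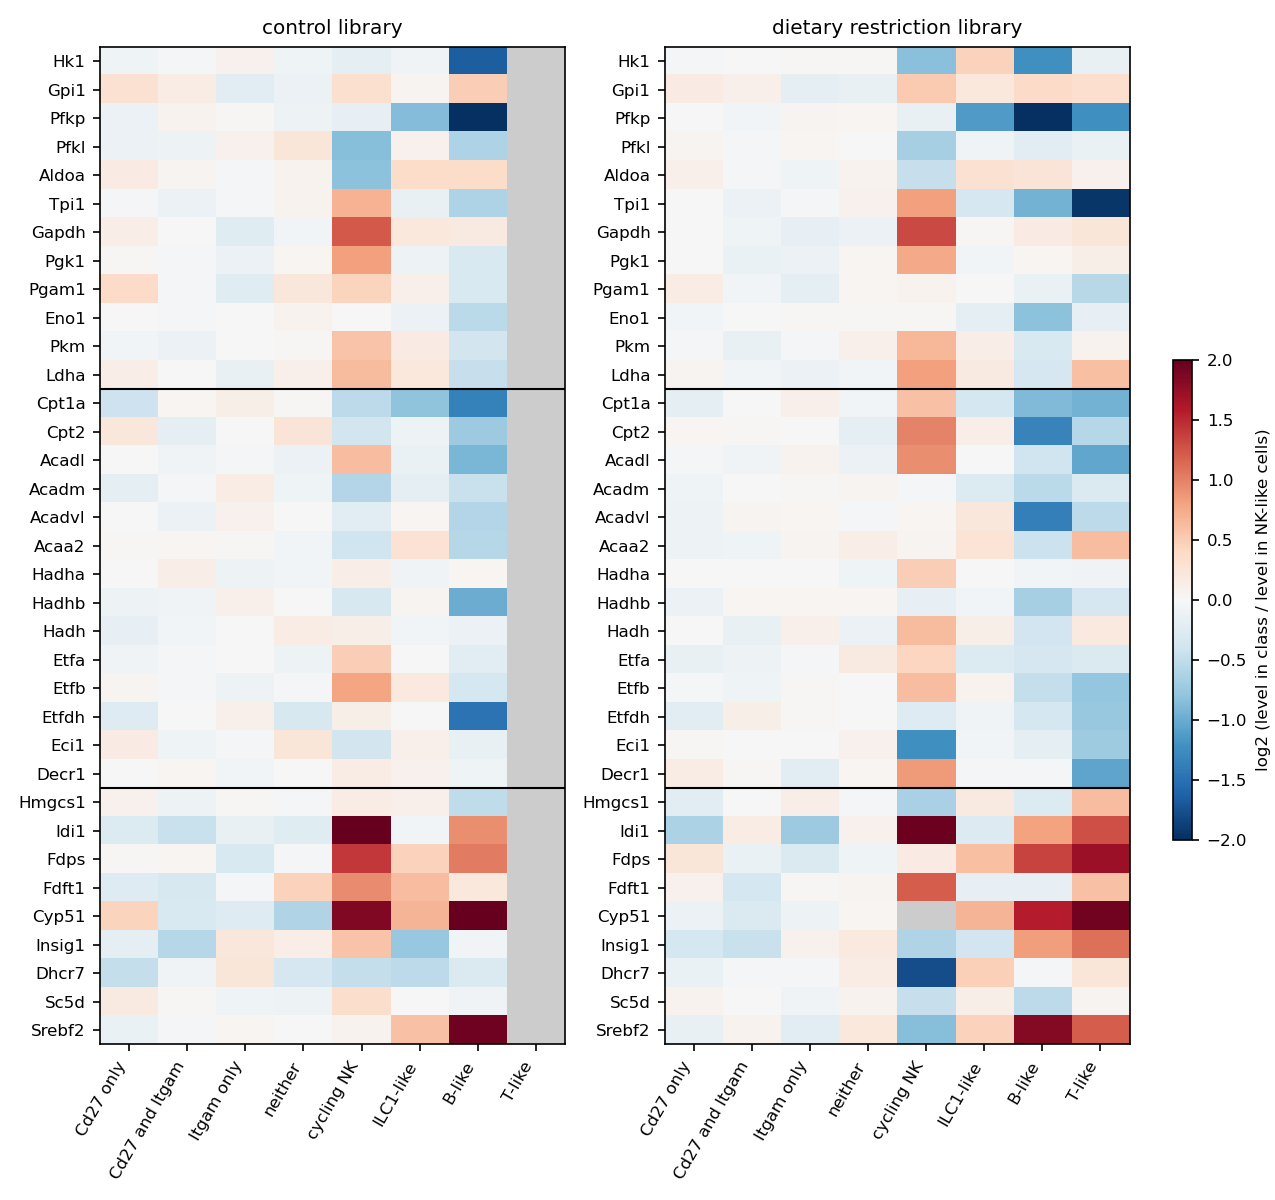
Log2 of the level in a class over the level in all NK-like cells of the same library, for members whose mean reached 5 CPM in NK-like cells; black lines part glycolysis, fatty acid oxidation and sterol synthesis. Grey marks 0 UMIs or the T-like class of the control library, which held 3 cells. Pfkp and Hk1 are low in B-like cells of both libraries and Srebf2, Fdps and Cyp51 high.

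T-like cells could be compared in the DR library only, since the control library held 3. Of 27 measured members, 6 were called higher than in NK-like cells and 9 lower, against 12.6% and 46.3% of all genes, whose median log2 ratio was -0.30. The counts were 11 and 6 with the median of ratios and 15 and 6 without ribosomal and mitochondrially encoded genes. In glycolysis Ldha stood at 330 against 218 CPM and Gpi1 at 206 against 164 CPM. Tpi1 stood at 32.8 CPM (26.2 to 40.7) against 127 CPM, a log2 ratio of -1.95, Pfkp at 57.1 against 134 CPM and Pgam1 at 67.3 against 98.5 CPM. In fatty acid oxidation 6 of 11 measured genes were lower, among them Acadl (48.1 against 99.3 CPM) and Cpt1a (14.1 against 27.1 CPM), while Acaa2, the thiolase of the last step, was higher at 68.8 against 45.1 CPM. In sterol synthesis Fdps stood at 36.8 against 11.2 CPM, Srebf2 at 52.0 against 22.6 CPM and Hmgcs1 at 30.1 against 19.5 CPM, log2 ratios of 1.72, 1.21 and 0.62. Fdps and Hmgcs1 reached 20 CPM in T-like cells and not in NK-like cells, and Cpt1a the other way round. Higher genes were 21.3% of all calls, 50.8% with the median of ratios and 56.4% without ribosomal and mitochondrially encoded genes. Hadhb, lower at 91.9 against 116 CPM, had a log2 ratio of -0.33 that became 0.00 on the last of these scales.

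**Figure D5:**
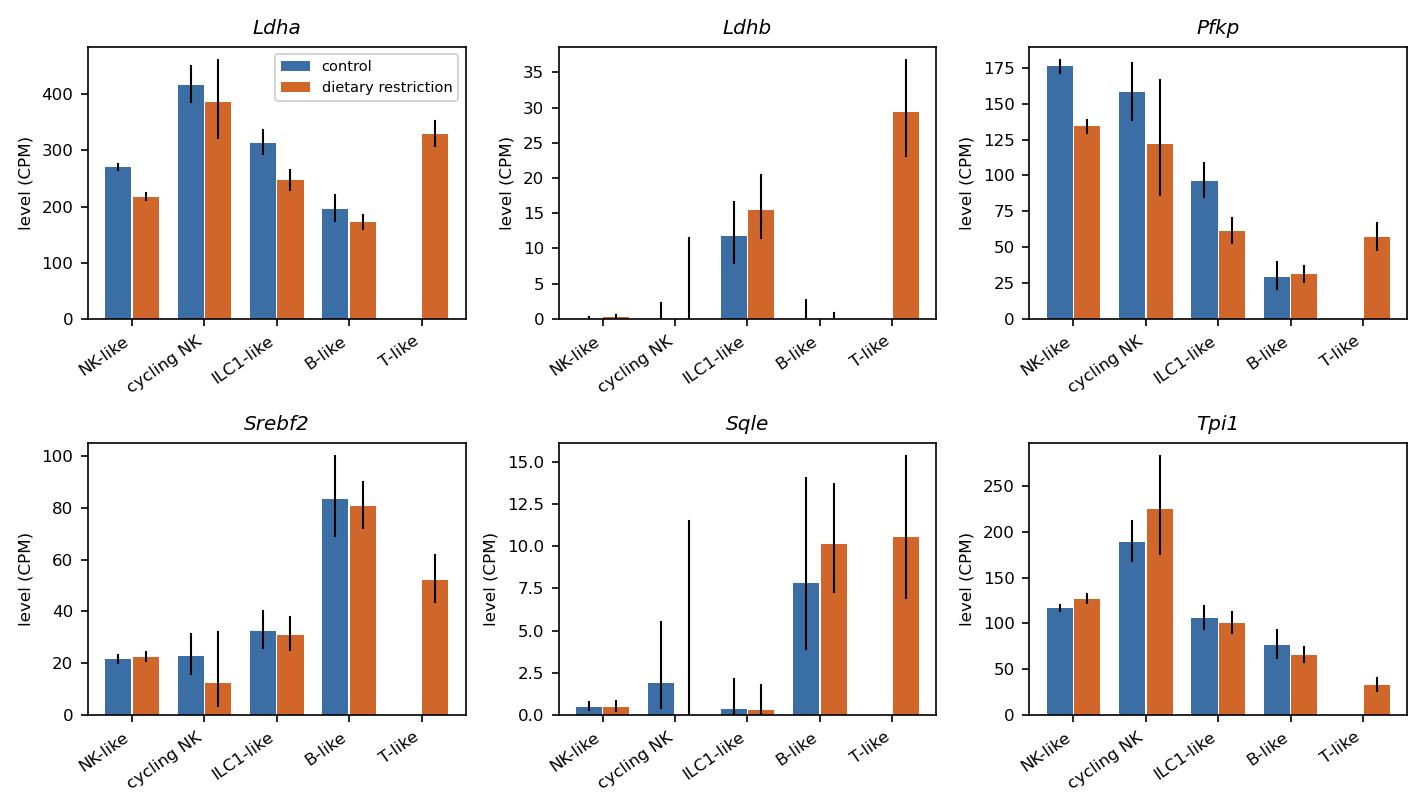
Level in CPM of Ldha, Ldhb, Pfkp, Srebf2, Sqle and Tpi1 by cell class and library; bars start at 0 and lines are 95% Poisson intervals. Ldhb is found in ILC1-like and T-like cells, Pfkp is highest in NK-like and cycling NK cells, Srebf2 and Sqle are highest in B-like and T-like cells, and Tpi1 is lowest in T-like cells.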

How the data were processed

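The authors deposited raw UMI counts, as whole numbers for each gene and barcode, from Cell Ranger (version 5.0.1 per the file headers; the submitters' processing notes name 2.1.1 and the build mm10). Barcodes under 500 genes or over 10% mitochondrial UMIs were dropped. The automatic Scrublet threshold marked 0 cells, so the top scores were removed at the share expected from the cell load (262 control and 335 DR cells). Cells were clustered together in scanpy 1.11.5 (2000 variable genes, 30 components, 15 neighbours, Leiden resolution 0.6), without integration, and named by marker lists. Raw counts were summed per class and library. No test was made, since cells are no replicates and each group was 1 library; the ratio code was tested on simulated data. The members and lists were chosen with earlier results of these data known. Measured members could be named; others were counted and named once, except that Ldhb, Sqle, Idi1, Fdps, Cyp51, Fdft1 and Decr1 were picked for their values after these were seen. Of the further lists, up to 3 called genes per list were eligible. Gene positions came from GENCODE M21. Barcodes without cells were not used here, so free RNA was not estimated.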

Additional observations from a re-analysis of the deposited data

How the results depend on the processing

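No paired analysis was possible because each group was 1 library and no replicate could be left out. In all, 19 alternatives were run, 4 of them chosen after the data were seen; 693 of 769 log2 ratios of called members kept direction and call, 75 kept direction and lost the call, and Hadhb in T-like cells (0.0012 without ribosomal and mitochondrially encoded genes in the total) reversed. The calls over all NK-like cells held under each alternative run, with ranges of -0.42 to -0.32 for Hk1, -0.43 to -0.33 for Pfkp and 0.39 to 0.53 for Hadh, except that a limit of 50 CPM leaves Hadh unmeasured. The median sterol ratio of cycling cells, 0.40, turned to -0.0073 with NK cells picked per cell, -0.15 without sub-clusters led by B cell transcripts and -0.043 with both cluster and per-cell rule. The limit of 5% mitochondrial UMIs was run with new clusters and names. Cycling cells named NK-like were then too few to compare. Their median mitochondrial share in the main run was 1.59% in control and 2.06% in DR, and why they were lost was not tested. The larger moves in counts of called members are listed below, with the value before the change first. Smaller moves are not all listed. Among them, all NK-like lower went from 2 to 3 and cycling higher from 12 to 9 with the added per-cell rule. With 5 CPM, Cd27 alone lower went from 4 to 5, cycling higher from 12 to 14 and T-like lower from 9 to 11. DR over control, Cd27 alone: lower from 4 to 2 with 5% mitochondrial UMIs, per-cell picking, equal cell weights, 50 CPM, median of ratios and thinned stage calls; higher from 1 to 0 with 50 CPM and to 2 with thinned calls. Both genes: higher from 0 to 1 with the Batf3 and Cxcl10 clusters, either per-cell rule, all variable genes, equal weights, thinned calls and without B-led sub-clusters, and to 2 under both other scales, where lower went from 4 to 2. Itgam alone: lower from 2 to 5 with 5 CPM and to 1 under both other scales and thinned calls; higher from 1 to 0 with 50 CPM. Neither: higher from 0 to 1 with 5% mitochondrial UMIs, all variable genes, no doublet removal, both other scales and without B-led sub-clusters; lower from 1 to 2 with per-cell picking and all variable genes and to 4 with thinned calls. All NK-like: higher from 1 to 2 with 5 CPM and to 0 with 50 CPM. Cd27 alone over Itgam alone: higher from 2 to 1 with the added per-cell rule, equal weights and 2-UMI stage calls, and to 0 with thinned calls; lower from 0 to 1 with the Batf3 and Cxcl10 clusters and per-cell picking. Cycling: lower from 1 to 2 with either per-cell rule, to 3 with equal weights and to 0 with 6 of 12 genes, double-positive reference, 50 CPM, median of ratios and without B-led sub-clusters. ILC1-like: higher from 1 to 2 with the added per-cell rule and without ribosomal and mitochondrial genes, to 3 with 5 CPM and to 0 with 50 CPM; lower from 1 to 2 with the median of ratios and without B-led sub-clusters. B-like: higher from 2 to 5 with 5 CPM and without ribosomal and mitochondrial genes and to 4 with the median of ratios; lower from 10 to 3 with the median of ratios and to 5 without those genes. T-like: higher from 6 to 11 with 5 CPM and the median of ratios, to 3 with 50 CPM and to 15 without those genes. The limit of 20 CPM left 3 of 11 sterol genes measured in NK-like cells. The causes were not tested.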

Other observations

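Stard4, which encodes a carrier of cholesterol between membranes, was not among the members and lay below 20 CPM in control cells; it was picked after its values were seen. NK-like cells held 9.35 CPM in the control and 25.4 CPM in the DR library, a log2 ratio of 1.44 (1.246 to 1.64). It was higher in the DR library in each of the 4 stages, at 6.10 and 29.1 CPM in cells with Cd27 alone, 10.2 and 23.5 CPM in cells with both, 9.77 and 28.7 CPM in cells with Itgam alone, and 5.16 and 18.8 CPM in cells with neither. ILC1-like cells stood at 13.2 and 33.1 CPM and B-like cells at 4.99 and 14.0 CPM. Each of these intervals left out equality. The 4 stages are parts of the NK-like cells in which Stard4 was picked, so they are no separate check of it. Srebf2, which acts upstream of sterol genes, had an interval that held equality in NK-like cells.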
